A study of Mus musculus with 32 samples.

Results

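In RADICL-seq, RNA is ligated to nearby DNA inside fixed nuclei, so each sequenced molecule pairs a tag of RNA with a tag of DNA. The interactions described here are those whose RNA tag lay in a 5' untranslated region (5'UTR), the stretch of an mRNA between its cap and its start codon. They were taken from the deposited region label of each RNA tag, with no use of any measured level. Of 25231081 listed interactions in 15 libraries, 242763 (0.962%) had a 5'UTR tag, and these came from 9769 genes. An interaction was counted once for each distinct combination of RNA position and strand, DNA position and strand. The comparison of the libraries asked how RNA-chromatin contacts differ between cell types, with more crosslinker, after a block of transcription, and when proteins no longer hold RNA and DNA together.

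The cells were the mouse R08 embryonic stem cell line (mESC), which is male and grown without feeders, and the Oli-neu oligodendrocyte progenitor line (mOPC), so that each cell type is represented by 1 line. The mESC 1FA and mOPC 1FA groups (3 libraries each) were fixed with 1% formaldehyde, and the mESC 2FA group (3 libraries) with 2% formaldehyde. By the paper's methods, DNase I digestion was also longer at 2% than at 1%. The mESC ActD4 group (2 libraries) received the transcription blocker actinomycin D at 5 µg per ml, and was crosslinked 4 h later. In the mESC NPM and mOPC NPM groups (non-protein-mediated, 2 libraries each) crosslinks were reversed and proteins digested before RNA ligation. The labels of the ActD4 and NPM groups give no formaldehyde percentage, and the paper states 1% for both of these conditions. All libraries included an RNase H step. Replicates were batches of cells of different passage. The files list only pairs of a transcript and a 25-kb DNA bin that passed a significance threshold on pooled replicates, so replicates share a list of pairs and their spread is understated. Listed totals ran from 251802 to 2832717 interactions per library and are not sequencing depth, and a gene listed at 0 was not shown to be absent.

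The cell types were checked against their markers over all RNA regions. The 20 mESC markers summed to a mean of 4423 CPM (interactions per 1000000 listed interactions of a library) in mESC 1FA and 57.0 CPM in mOPC 1FA. The 20 mOPC markers summed to 138 in mESC 1FA and 13411 in mOPC 1FA. The 14 markers of neurons, astrocytes, primitive endoderm and fibroblasts had means of 170 to 596 CPM in the 6 groups. Within the 5'UTR tags the mESC markers had a mean of 31.5 CPM in mESC 1FA and 0.484 in mOPC 1FA, and the mOPC markers 2.55 and 75. Tet1, an enzyme that oxidises methylated cytosine, gave 208 of the 606 mESC marker tags, and Cntn1, a neural cell adhesion molecule, gave 234 of the 580 mOPC marker tags. The sums over all RNA regions also rested on few genes. Over all libraries, Esrrb and Tet1 gave 26927 and 24971 of 72829 mESC marker interactions. Lhfpl3 and Cntn1 gave 57402 and 35122 of 121063 mOPC marker interactions.

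The 5'UTR is the first part of an mRNA that RNA polymerase II makes, and most of it usually lies in the first exon. A 5'UTR tag can therefore stem from a nascent transcript just past its promoter, from a pre-mRNA that is still being elongated, or from a finished and spliced mRNA. 5'UTRs control translation through short upstream reading frames, structured elements and terminal oligopyrimidine tracts, and some overlap small nucleolar RNAs (snoRNAs), which guide chemical changes of ribosomal RNA in the nucleolus.

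The sequences just before the transcription start are shown for leading genes whose tags piled up shortly after it. Each line gives the 30 bases before the RefSeq transcript start (GRCm38.p6), 5' to 3' on the gene's strand, with CG dinucleotides in capitals. The start used was the RefSeq start nearest upstream of the gene's most used RNA tag position. A short distance between the 2 is therefore in part a result of that choice.
Qk, chr17:10319362-10319391, minus strand: caggggCGgCGgCGcCGcctgaactgaggc
Gli2, chr1:119053620-119053649, minus strand: cCGCGgactttttttcaaactcctctcatc
Ppp1cb, chr5:32458940-32458969, plus strand: gggaCGtggCGCGCGtgCGCGcagttCGgc
Dyrk1a, chr16:94570176-94570205, plus strand: aaaatcctCGtCGggaagaagCGgcCGgca
Etl4, chr2:20519483-20519512, plus strand: cctgtgtgaagtgtttgccttatccctaag
The 250 bases before the start held 52 CG in Qk, 22 in Gli2, 24 in Ppp1cb and 43 in Dyrk1a, but 2 in Etl4 and 2 in Sox6. The starts used for Etl4 (20519513) and Sox6 (115824710) lie inside their genes, which span chr2:19909780-20810713 and chr7:115470872-116038796. Their values therefore do not describe the promoters at the outer 5' ends of these genes. The starts used did not all follow CG-rich sequence. The median over 32851 RefSeq promoters was 6, and 37.8% of them held at least 10. The most used RNA tag position lay 230 bp after the start in Qk (228 tags), 68 bp in Gli2 (120 tags), 352 bp in Ppp1cb (110 tags) 285 bp in Dyrk1a (72 tags), 334 bp in Etl4 (85 tags) and 269 bp in Sox6 (54 tags).

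The 3' ends of snoRNA genes are shown because RNA tags inside them gave most 5'UTR contacts with the ribosomal RNA gene in the crosslinked libraries other than mESC 1FA, as described further on. Each line gives the last 30 bases of the gene (GRCm38). The capitals mark a match to ACA, which lies 3 bases from the end of H/ACA snoRNAs, or to CTGA, the D box of C/D snoRNAs.
Snora7a in Rpl32, chr6:115807975-115808004, minus strand: ctggtgattggaagacactctgcaACAtta
Gm23991 in 2410002F23Rik, chr7:44250513-44250542, plus strand: acctttgacatccaggagtCTGAggggttt
Gm26247 in 2410002F23Rik, chr7:44248151-44248180, plus strand: gacctttgacacctggagatCTGAggacct
Snord45c in Rabggtb, chr3:153912125-153912154, minus strand: actttagctctagaattactCTGAgacctg
Gm23991 and Gm26247 lie in the same host gene, and the match to CTGA ended 7 and 6 bases before their 3' ends.

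5'UTR tags took the largest part of the interactions in the actinomycin D libraries. Their share of all interactions was 1.34%, 0.984% and 1.04% in the mESC 1FA libraries and 3.12% and 3.16% in mESC ActD4. The share was 1.04%, 0.865% and 0.805% in mESC 2FA, 0.725%, 0.808% and 0.717% in mOPC 1FA, 0.749% and 0.677% in mESC NPM, and 0.642% and 0.701% in mOPC NPM. Both ActD4 libraries thus lay above every other library. The ActD4 mean of 3.14% ± 0.0284 (SD, n = 2) was 2.80 times the mESC 1FA mean of 1.12% ± 0.189 (SD, n = 3), with p = 0.1 in an exact two-sided permutation test, the smallest value that 2 against 3 libraries allow. The same smallest value was reached by mOPC 1FA against mESC 1FA, which did not overlap and differed by -0.371 percentage points. Over both cell types NPM libraries were 0.244 points lower than 1FA libraries in the mean (exact permutation within cell type p = 0.01, adjusted p = 0.07). That difference turned to 1.14 points without interactions whose DNA tag lay in the RNA's own gene, and to 0.664 points when each transcript-bin pair was counted once, where the difference was -0.898 points in mESC and 2.23 points in mOPC. Of the 28 library comparisons of this and the next measures, none had an adjusted p under 0.05. Of tags in 5'UTR, coding or 3'UTR sequence together, 5'UTR tags were 11.6% in mESC 1FA, 10.9% in mESC 2FA, 18.6% in ActD4 and 10.9% in mOPC 1FA, but 2.72% in mESC NPM libraries and 3.35% in those of mOPC NPM.

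Per kilobase of annotated sequence, 5'UTR tags were about as dense as coding tags in the 1FA and 2FA groups, denser in ActD4 and sparser in NPM libraries. The bases were those of protein-coding genes with an interaction in that library. For 5'UTRs they numbered 5087524 to 5119940 in mESC 1FA but 3363280 and 3377775 in ActD4. A smaller base raises the density, so the densities of these groups differ more than their shares. The 5'UTR density was 2.20 ± 0.378 tags per kb and 1000000 interactions in mESC 1FA (SD, n = 3) and 9.32 ± 0.109 in ActD4 (SD, n = 2). Coding sequence had 2.13 in mESC 1FA, 6.57 in ActD4, 8.28 in mESC NPM and 4.87 in the mOPC NPM libraries. The ratio of 5'UTR to coding density was 1.03 in mESC 1FA, 1.11 in mESC 2FA, 1.42 in ActD4 and 1.18 in mOPC 1FA, against 0.193 in the mESC NPM libraries and 0.270 in those of mOPC NPM. The 2 NPM groups therefore held the lowest ratios, and no NPM library (0.183 to 0.308) overlapped a crosslinked one (0.975 to 1.43). Against introns, 5'UTRs were denser in every group, from 1.57 times in mOPC 1FA to 6.09 times in ActD4. In ActD4 the density over 3'UTRs was 7.15 times, against 1.94 times in mESC 1FA.

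**Figure D1:**
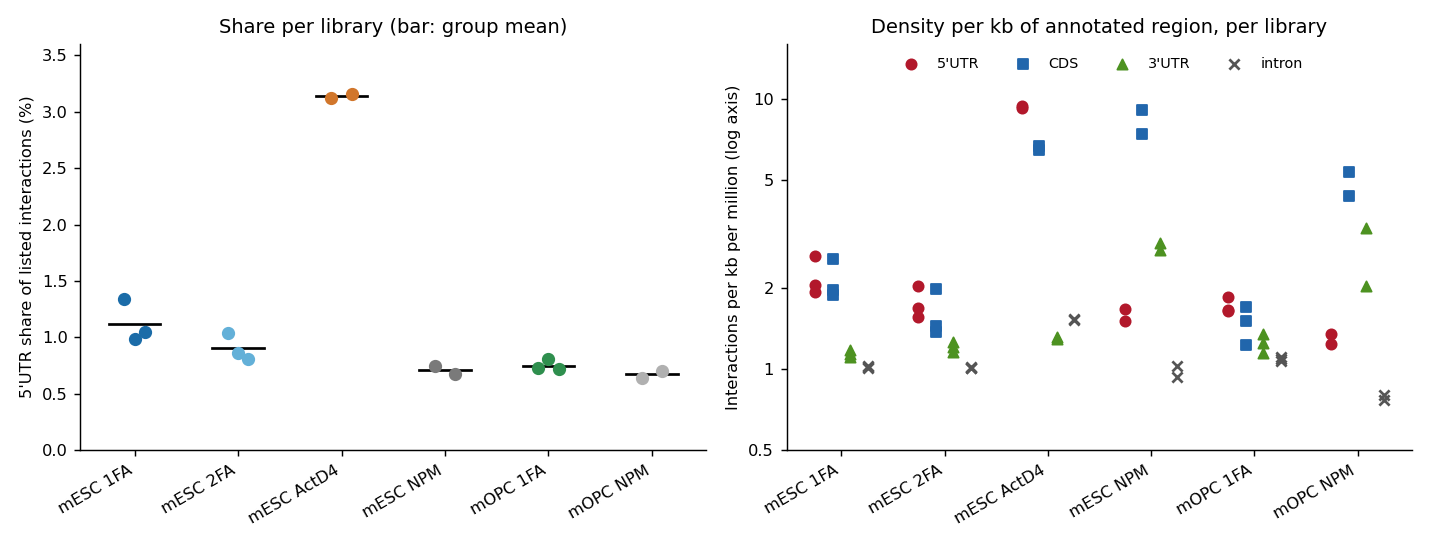
The left panel plots the 5'UTR share of all listed interactions in percent for each library (points, with group means as bars), and the right panel the tags per kb of annotated 5'UTR, coding (CDS), 3'UTR and intron sequence and per 1000000 interactions on a log axis. Densities count the sequence of protein-coding genes with an interaction in that library. The ActD4 libraries lie at 3.12% and 3.16%, above all others, and in the NPM groups coding density exceeds 5'UTR density.

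Tags were spread over many genes and close to the transcript start. The 10 leading genes held 4.10% of the 5'UTR interactions, the 100 leading genes 19.3%, and 631 genes gave 50%. The median gene had 7 interactions. The mESC 1FA group had tags in 7082 genes, mESC 2FA in 6726, ActD4 in 4081, mESC NPM in 2711, mOPC 1FA in 5433 and mOPC NPM in 4382. Tags of all 6 groups were found for 1098 genes, and 2295 genes had tags in 1 group alone, of which 1680 had a single tag in all libraries and could fall in no more than 1 group. Between 88.7% and 92.8% of the tags lay in a first exon in the crosslinked libraries, against 77.9% to 83.6% in the NPM libraries. For the tags in a first exon, the median distance from the transcript start was 160 to 182 bp in crosslinked and 211 to 253 bp in NPM libraries. On both measures the NPM libraries lay apart from all crosslinked ones.

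DNA tags close to the RNA tag made up a small part of crosslinked 5'UTR interactions and nearly all of the NPM ones. The share within 1 kb on the same chromosome was 4.50%, 7.0% and 4.87% in the mESC 1FA libraries and 7.25%, 4.69% and 8.06% in mOPC 1FA. The mESC 2FA libraries had 6.46%, 10.9% and 9.04%, and those of ActD4 17.4% and 17.5%. In the NPM libraries it was 87.6% and 85.8% for mESC and 91.5% and 92.2% for mOPC. The NPM and 1FA libraries differed by 83.2 points over both cell types, with no overlap (exact permutation p = 0.01, the smallest this design allows, adjusted p = 0.07). The ActD4 libraries also lay above all 3 mESC 1FA libraries, by 12 points in the mean, with the smallest possible exact p = 0.1.

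The side of these near DNA tags differed as well. Upstream and downstream were counted from the RNA tag along its strand. In the NPM libraries, 2.74% to 5.15% of the DNA tags within 1 kb lay downstream of the RNA tag. The share was 40.1% to 45.2% in mESC 1FA, 54.3% to 55.9% in ActD4 and 21.8% to 40.9% in mOPC 1FA. NPM tags upstream of the RNA tag were not mainly upstream of the gene. For RNA tags of first exons with DNA on the same chromosome, 53.9% to 59.9% of the NPM DNA tags fell in the first 1 kb after the transcript start and 33.8% to 40.3% in the 1 kb before it. In mESC 1FA these shares were 2.72% to 4.21% and 1.60% to 2.57%, and in ActD4 12.7% to 12.8% and 3.99% to 4.2%. The upstream side of near DNA tags in NPM libraries was not particular to 5'UTRs. In mESC NPM, 1.35% of near DNA tags lay downstream for coding, 1.29% for 3'UTR and 2.53% for intron tags. The mOPC NPM values were 1.42%, 1.01% and 1.84%.

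**Figure D2:**
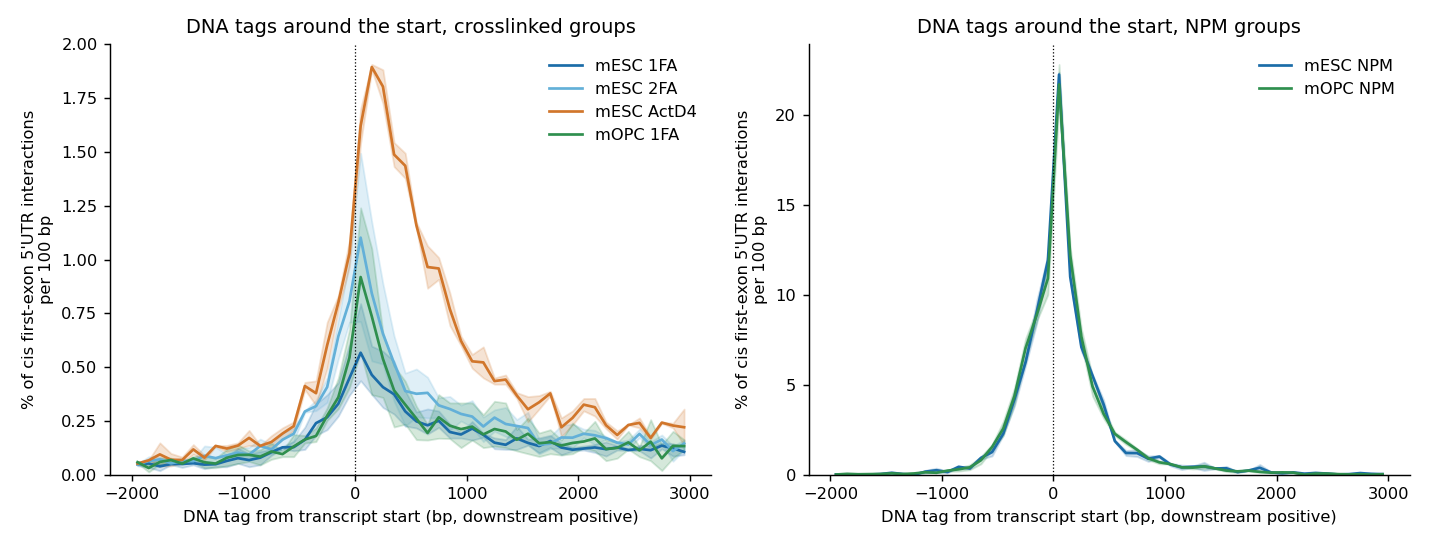
Position of the DNA tag relative to the annotated transcript start, in bp along the gene's strand, for RNA tags in first exons with DNA on the same chromosome, as percent per 100-bp step. Lines are group means and bands the range of libraries, and the NPM panel has its own scale. The NPM libraries hold 53.9% to 59.9% of their DNA tags in the first 1 kb after the start, and the mESC 1FA libraries 2.72% to 4.21%.

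Beyond 1 kb, crosslinked 5'UTR RNAs met DNA downstream of the RNA tag more often than upstream. The downstream share of interactions on the same chromosome beyond 1 kb was 64.2%, 64.2% and 64.5% in the mESC 1FA libraries and 68.8%, 67.1% and 68.1% in mOPC 1FA. The mESC 2FA libraries had 65.3%, 66.6% and 67.5%, and those of ActD4 69.3% and 68.4%. In NPM libraries it was 12.9% and 10.7% for mESC and 7.26% and 9.12% for mOPC, which rests on 561 and 1204 interactions. The mOPC 1FA mean lay 3.73 points above mESC 1FA, the mESC 2FA mean 2.19 points and the ActD4 mean 4.56 points, each without overlap and each at the smallest exact p = 0.1. At equal pooled numbers of interactions, with pairs of at least 5, the ActD4 difference turned to -6.06 points. Between libraries of the same replicate number, the mESC 2FA value lay above that of mESC 1FA in all 3 pairs for this share and for the share within 1 kb, and below it in all 3 pairs for the 5'UTR share and the trans share, each with the smallest possible exact p = 0.25. NPM libraries lay 56.1 points below 1FA libraries over both cell types (exact permutation p = 0.01, adjusted p = 0.07).

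Over all genes, little or no downstream excess was left in the crosslinked groups without DNA of the RNA's own gene. A 5'UTR lies at the start of its gene, so that DNA of the same gene is mostly downstream of it. Leaving it out takes away near downstream DNA and keeps near upstream DNA, so it cannot show where the excess lay. Without interactions whose DNA tag lay in the RNA's own gene, the downstream share was 50.9% in mESC 1FA, 51.4% in mESC 2FA, 51.8% in mOPC 1FA and 44.6% in ActD4, so the ActD4 difference changed sign to -6.30 points. In mESC 1FA, 34.3% of the DNA tags lay within the span of the RNA's gene, 32.5% upstream of it and 32.8% past its 3' end. In ActD4 these shares were 54.9%, 25.8% and 19.1%. In mESC 1FA the downstream share was 71.8% from 1 to 10 kb, 69.9% from 10 to 100 kb and 58.9% from 100 kb to 1 Mb. The corresponding values in mOPC 1FA were 72.7%, 74.7% and 63.9%. From 1 to 10 Mb the downstream share was 53.5% in mESC 1FA and 56.1% in mOPC 1FA. Beyond 10 Mb it was 62.0% and 47.7%. The largest single band in mESC 1FA was 10 to 100 kb downstream, with 24.8% ± 0.201 of all 5'UTR interactions (SD, n = 3), followed by 100 kb to 1 Mb downstream with 23.9% ± 0.770. In ActD4 the 10 to 100 kb downstream band held 27.7%, and the bands from 100 kb to 1 Mb held 14.8% downstream and 7.84% upstream. Of the own-gene DNA tags beyond 1 kb, 9.59% to 15.7% fell in annotated exons of that gene in the crosslinked libraries, against 76.5% to 82.7% in NPM libraries, where they numbered 216 to 564 per library.

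**Figure D3:**
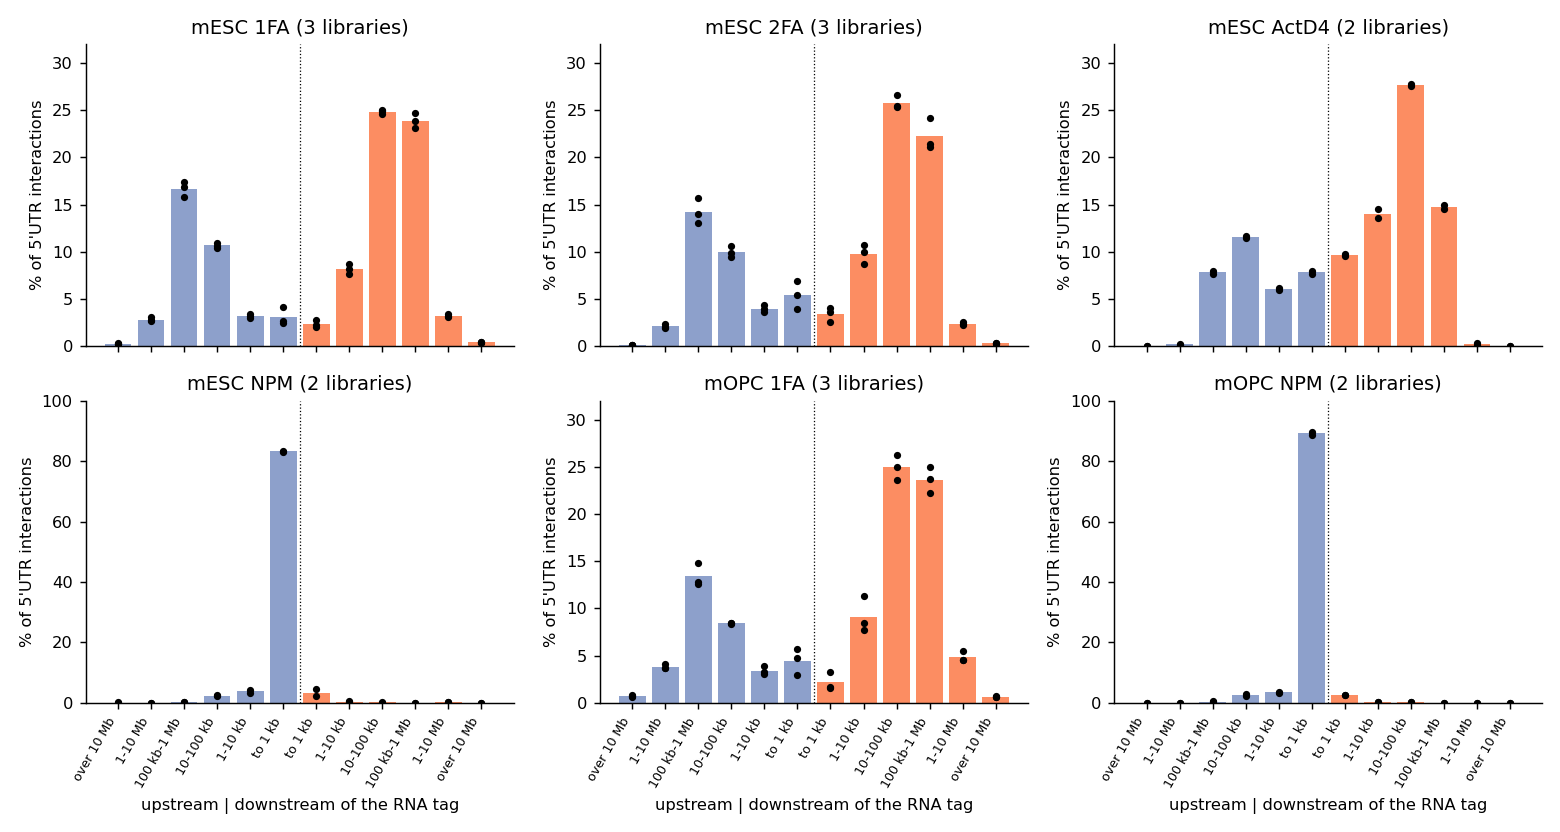
Share of 5'UTR interactions by distance band from the RNA tag to the DNA tag, upstream and downstream along the RNA strand, as group means (bars) with points for libraries, the NPM panels having their own scale. The largest mESC 1FA band is 10 to 100 kb downstream (24.8%), and the largest NPM band is within 1 kb upstream (83.3% for mESC and 89.2% for mOPC).

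The downstream excess was compared with other RNA regions of the same libraries. In all 15 libraries 5'UTR tags had a higher downstream share than coding tags, by 7.94 ± 1.86 points (SD over libraries, exact sign-flip permutation p = 6.1e-05, the smallest possible, adjusted p = 0.000275). They also exceeded 3'UTR tags in all 15 libraries, by 10.7 ± 3.89 points (exact sign-flip permutation p = 6.1e-05, adjusted p = 0.000275). Against introns the difference was positive in the 11 crosslinked libraries, from 8.16 points in mESC 1FA to 11 in mOPC 1FA in the mean, and negative in the 4 NPM libraries, at -3.58 points for mESC and -12.4 for mOPC. The mean over libraries of 4.96 points against introns had an exact permutation p = 0.0446 and an adjusted p = 0.0668. Without own-gene targets, an alternative chosen after seeing the data, the means over the 15 libraries turned. The 5'UTR share then differed from the coding share by -6.75 points (lower in 13 of 15 libraries), from the 3'UTR share by -22.9 points (lower in all 15) and from the intron share by -11.6 points (lower in 14 of 15). The mean against introns rested on the NPM groups, at -19.4 points for mESC and -60.8 for mOPC, while mESC 1FA had -1.09, mESC 2FA -0.709, ActD4 -3.94 and mOPC 1FA 0.00853 points. Against coding tags mESC NPM stayed positive at 3.94 points. In the crosslinked libraries, leaving out own-gene DNA takes away mainly downstream targets of a 5'UTR and mainly upstream targets of a 3'UTR. In the NPM libraries the own-gene targets of 5'UTR tags beyond 1 kb were mainly upstream. Libraries of a group share their list of pairs, and the regions of a gene share its bins, so the 15 libraries were not fully independent.

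**Figure D4:**
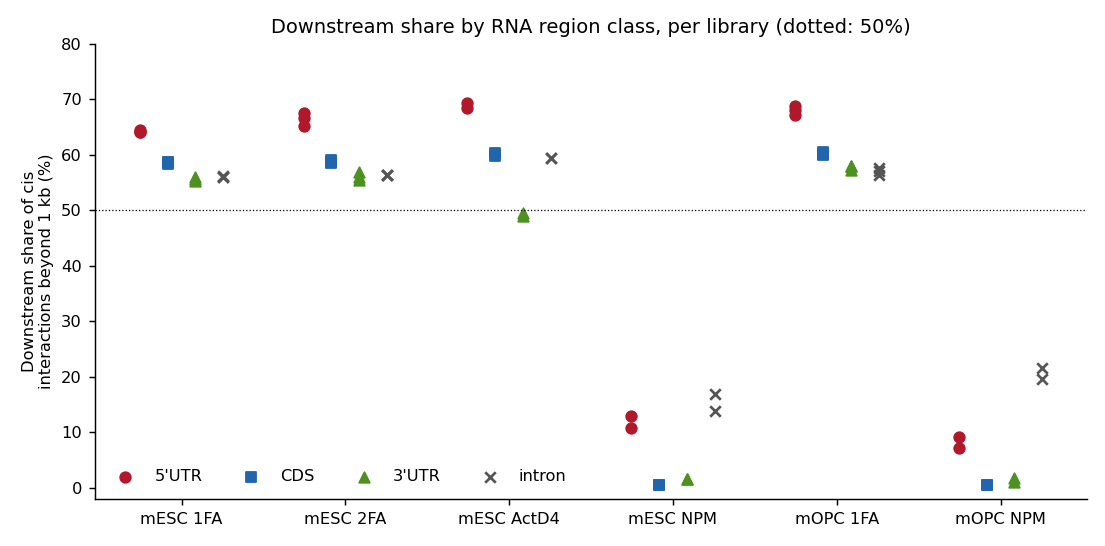
Downstream share of same-chromosome interactions beyond 1 kb, in percent, for 5'UTR, coding (CDS), 3'UTR and intron tags, with a point for each library and a dotted line at 50%. The 5'UTR value exceeds the coding and the 3'UTR value in all 15 libraries and the intron value in the 11 crosslinked libraries.

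For the share within 1 kb, 5'UTR tags lay 4.33 points below 3'UTR tags (lower in 13 of 15 libraries, exact sign-flip permutation p = 0.000671, adjusted p = 0.00201). Against coding tags the direction differed between groups. The NPM 5'UTR tags exceeded the coding tags by 29 points in mESC and 30.5 in mOPC, while in mESC 1FA and mOPC 1FA they were below them by a mean difference of -1.50 and -4.77 points. The difference was -3.33 points in mESC 2FA, and it was positive in both ActD4 libraries, at 1.61 points in the mean. Over all 15 libraries the exact sign-flip permutation test against coding tags gave an adjusted p = 0.140. From intron tags the 5'UTR tags differed by -6.67 points in mESC NPM and -3.98 in mOPC NPM. In the crosslinked groups that difference was 1.09 to 2.95 points in the mean (exact sign-flip permutation over all libraries, adjusted p = 0.960).

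Single genes varied widely around the common downstream share. Among 413 genes with at least 100 crosslinked interactions beyond 1 kb on their chromosome, the median downstream share was 64.6%, with quartiles of 59.3% and 70.0%, and 387 genes were over 50%. Without own-gene targets the median was 49.4%, with 190 genes over and 213 under 50%. The lowest values were 33.6% for Tbx3, a T-box transcription factor (122 interactions), 36.2% for Ppp1cb, a catalytic subunit of protein phosphatase 1 (497 interactions), and 37.8% for Ddx39b, an RNA helicase of mRNA export (143 interactions). The highest were 98.1% for Scaf8, which binds the tail of RNA polymerase II (106 interactions), 89.6% for Fam19a2, a secreted neural protein (270 interactions), and 88.9% for Chst11, a chondroitin sulfotransferase (153 interactions). Outside the own gene, 97.0% of Scaf8 interactions and 20.6% of Ppp1cb interactions were downstream. In mESC 1FA, genes under 10 kb had a downstream share of 67.4%, genes of 10 to 100 kb 63.6% and longer genes 64.9%, while the share in the own gene was 20.3%, 27.7% and 39.2%. Outside the own gene, genes under 10 kb kept a downstream share of 60.2% ± 0.240 in mESC 1FA (SD, n = 3) and 64.7% ± 3.62 in mOPC 1FA (SD, n = 3). For these short genes a downstream excess was therefore also seen beyond the gene in the 1FA groups. The mESC 2FA value was 62.1% ± 2.65 (SD, n = 3). In ActD4 it was 50.9% ± 0.468 (SD, n = 2), so little or no excess was seen there. The mESC NPM libraries had 53.3% and 72.7% and those of mOPC NPM 5.26% and 5.88%, on 11 to 19 such interactions each. In mESC 1FA and mOPC 1FA the values outside the own gene were 51.7% and 53.2% for genes of 10 to 100 kb. For longer genes they were 47.6% and 48.3%.

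Few 5'UTR interactions joined different chromosomes, and most of those met the ribosomal RNA gene. The trans share was 0.275%, 0.416% and 0.335% in the mESC 1FA libraries, 0.180%, 0.381% and 0.296% in mESC 2FA, and 0.168% and 0.226% in ActD4. It was 0.262%, 0.258% and 0.342% in mOPC 1FA, 0.710% and 0.923% in mOPC NPM, and 4.33% and 6.94% in mESC NPM. All 4 NPM libraries lay above all 6 libraries of the 1FA groups, by 2.91 points over both cell types (exact permutation p = 0.01, adjusted p = 0.07). A single 25-kb bin, chr17:39825001-39850000, which holds the annotated ribosomal RNA gene, took 289 of 297 trans interactions in mESC 1FA, 160 of 169 in mESC 2FA, 40 of 40 in ActD4, 407 of 427 in mESC NPM, 101 of 135 in mOPC 1FA and 64 of 135 in mOPC NPM. Without this bin the trans share was 0.00854% in mESC 1FA, 0.291% in mESC NPM, 0.0711% in mOPC 1FA and 0.432% in mOPC NPM, and the ActD4 libraries listed none. The difference of mOPC 1FA from mESC 1FA was -0.0546 points with the bin and 0.0626 points without it. Only the bin of the assembled copy was counted, since repeats of this gene family elsewhere share its sequence.

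The RNAs that met this bin differed between crosslinked and NPM libraries. In mESC 1FA, 80 of the 289 came from 2410002F23Rik, a host gene of snoRNAs, and 43 from Rpl32, which encodes a large-subunit ribosomal protein. In mOPC 1FA they gave 36 and 51 of 101. Trans tags came from 136 genes in mESC 1FA, 58 in mESC 2FA, 5 in ActD4 and 35 in mOPC 1FA. In mESC NPM, they came from 310 genes, with 21 from 2410002F23Rik, 10 from Luc7l2, a splicing factor, and none from Rpl32. The mOPC NPM trans tags came from 78 genes, and neither 2410002F23Rik nor Rpl32 was among them. Over all libraries 523 5'UTR tags (0.215%) lay inside an annotated snoRNA gene on the same strand, and 370 of these (70.7%) met the bin. Snora7a in Rpl32 held 201 tags, 147 of them at the bin, Gm23991 held 155 with 137 at the bin, Gm26247 held 112 with 74 at the bin, and Snord45c in Rabggtb held 20 with 12 at the bin. Gm22589 in Ddx39b held 30 tags and none met the bin. These tags can stem from the snoRNA or from its host RNA, which the tags cannot tell apart.

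Tags in snoRNA genes were 43.6% of the 5'UTR tags at the bin in mESC 1FA, 62.5% in mESC 2FA, 92.5% in ActD4 and 87.1% in mOPC 1FA, but 4.67% in mESC NPM and 0 of 64 in mOPC NPM. Without tags in small RNA genes the trans share was 0.196% in mESC 1FA, 0.105% in mESC 2FA, 0.0140% in ActD4 and 0.0993% in mOPC 1FA, and it stayed at 5.38% in mESC NPM and 0.818% in mOPC NPM. Against coding tags, the trans share of 5'UTR tags was 0.449 points higher in the mean over libraries (higher in 12 of 15, exact sign-flip permutation p = 0.00671, adjusted p = 0.0151). It exceeded that of 3'UTR tags by 0.454 points (higher in 13 of 15, exact sign-flip permutation adjusted p = 0.0177). Against introns the mean of 0.328 points did not pass (exact sign-flip permutation adjusted p = 0.107), and mOPC NPM had -0.466 points. The difference from coding tags was 2.69 points in mESC NPM and between -0.0467 and 0.426 points in the other groups. When the same genes were compared, weighted by their 5'UTR interactions, the differences from coding and 3'UTR tags were 0.405 and 0.296 points and no longer passed, while that from introns was 0.499 points and passed. In the same genes mESC NPM differed from coding, 3'UTR and intron tags by 2.85, 2.48 and 2.75 points, and the other groups by -0.201 to 0.367. Over all genes, leaving out the mESC NPM libraries gave means of 0.104, 0.122 and 0.0679 points. Outside the bin no pair of a gene and a DNA bin was listed more than 7 times in a group, and the pair listed 7 times again involved 2410002F23Rik.

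Levels of single genes are given as 5'UTR interactions in CPM. Qk, an RNA-binding protein that controls splicing in oligodendrocytes, led mOPC 1FA with 113, 139 and 97.1 CPM. In mESC 1FA it had the highest mean, with 96.3, 47.9 and 58.6, which rested on replicate 1, since Usp48 and Pitpnc1 were higher in replicate 2. In ActD4 it had 172 and 119, and in the NPM libraries 4.60 and 9.85 for mESC and 16.5 and 10.1 for mOPC. No crosslinked library of Qk was as low as an NPM library. Other leading genes of mESC 1FA were Pitpnc1, a phosphatidylinositol transfer protein (59.6, 54.9 and 58.3), Usp48, a deubiquitinase (44.2, 70.0 and 56.5), Gm38394, and Smad7, an inhibitor of TGF-beta signalling (52.5, 47.1 and 47.7). In mESC 2FA, where Usp48 had the highest mean, Magi1, a scaffold of cell junctions (49.9, 29.5 and 44.5), was among the 5 highest in place of Smad7. In ActD4 the highest were Trim71, a regulator of developmental timing and mRNA turnover (146 and 246), Rptor, the scaffold of mTOR complex 1 (179 and 171), Smad7 (167 and 147), Wnk1, a kinase of ion transport (160 and 135), and Qk.

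The NPM libraries had other leading genes. In mESC NPM, Zfp57, a zinc finger protein that guards imprinted genes, had 122 and 143 CPM and Arhgap11a had 101 and 59.1. Next came 2410002F23Rik (73.6 and 50.9), Usp48 (46.0 and 73.9) and Luc7l2 (62.1 and 42.7). In mOPC NPM the highest were Thtpa, a thiamine triphosphatase (40.9 and 56.3), Brd2, a bromodomain protein (40.9 and 40.3), the olfactory receptor gene Olfr1349 (33 and 40.3), Pcdh17, a protocadherin (27.5 and 32.8), and Gm38394 (25.9 and 33.6). In mOPC 1FA, Tcf4, a basic helix-loop-helix factor (75.1, 74.5 and 81.0), Ppp1cb (79.6, 87.3 and 45), Thtpa (50.7, 57.4 and 27.0) and Fam19a2 (40.7, 45.1 and 45.5) followed Qk.

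**Figure D5:**
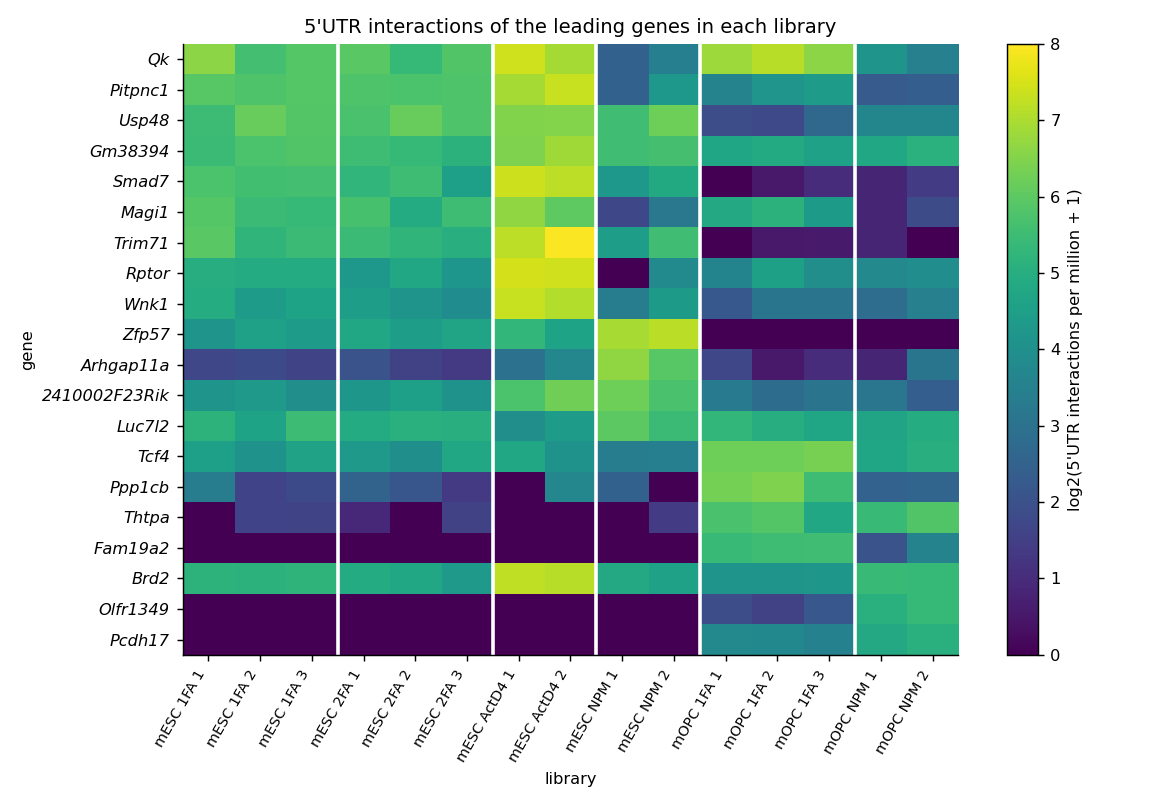
5'UTR interactions of leading genes (rows) in each of the 15 libraries (columns, ordered by group), on a colour scale of log2(CPM + 1). Dark purple marks genes listed at 0. Zfp57 is highest in the mESC NPM libraries (122 and 143) and Rptor in the ActD4 libraries (179 and 171).

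The names of some leading genes are uncertain, because their main tag lies in another annotated gene. At the most used tag position Gm38394 overlaps Zc3h11a, 2410002F23Rik overlaps Gm28496 and Gm23991, and Ctbp2 overlaps a transcript named Fgfr2, each on the same strand. Tmbim1 overlaps Pnkd on the other strand. The most used position of Thtpa (15 of 425 tags) lies outside the span of that gene in GENCODE M21, within Zfhx2os and Gm20687. Most of the overlapping genes stood out by the part of their own interactions that had a 5'UTR tag. Among 7819 genes with at least 300 interactions the median was 0.585%, while 2410002F23Rik had 98.8%, Tmbim1 52.2%, Gm38394 35.3%, Ctbp2 32.6% and Zfp57 31.1%.

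Between the cell types, 5'UTR features, each the 5'UTR tags of a gene, were tested with limma on log2 CPM together with all other regions. Of the 632 5'UTR features tested in mOPC 1FA against mESC 1FA, 156 were called higher in mOPC and 240 lower at an adjusted p under 0.05. Over all regions and genes, 69.7% of 17022 features were called, with 32.6% higher and 37.1% lower, so the 5'UTR shares were near the background. Scaling by the total alone moved the median of all features from -0.16 to -0.79 on the log2 scale and gave 128 higher and 341 lower, and a fit of the 5'UTR features alone gave 181 higher and 164 lower. The filter was passed through mOPC alone by 125 and through mESC alone by 357 features, so that their choice was not independent of the difference.

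The genes with the largest differences were listed at 0 on one side. Fam19a2, Adgrl3, an adhesion receptor of synapses (38.9, 45.6 and 44.5 CPM), and Sox6, a transcription factor of oligodendrocyte progenitors (45.7, 28.5 and 34), rose in mOPC 1FA and were listed at 0 in all mESC 1FA libraries. Rbpms, an RNA-binding protein (55.5, 30.3 and 38.5 in mESC 1FA), Etl4 (33.4, 20.9 and 30.4) and Gli2, a Hedgehog transcription factor (40.5, 15.6 and 21.5), fell and were listed at 0 in all mOPC 1FA libraries. These 6 genes passed the filter through the group that lists them, so their calls are a description. Genes that passed it through both groups included Qk, higher in mOPC by 1.46 ± 0.26 (log2, SE, limma adjusted p = 0.00161), and Tcf4, higher by 2.53 ± 0.16 (limma adjusted p = 3.6e-06). Ppp1cb, which passed through mOPC alone, differed by 4.76 ± 0.55, and Usp48, which passed through mESC alone, by -3.39 ± 0.34.

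The differences were not even along the genome. Of 40 tested 5'UTR features on chromosome 8, which holds Rbpms, 30 were called lower and 3 higher in mOPC, with a median log2 difference of -1.86. Of 16 features in the first 45 Mb of chromosome 5, which holds Ppp1cb, 12 were called higher and 2 lower, with a median of 4.32. The other 576 features had 141 higher and 208 lower with a median of -0.44. These stretches were chosen after their values were seen, and whether DNA copy number differs there was not tested.

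After actinomycin D, 5'UTR features were higher relative to the other features of the libraries. Of 740 tested features 267 rose and 17 fell, while of all 16890 features 41.5% were called, with 12.7% higher and 28.8% lower. The median log2 difference of the 5'UTR features was 1.01, against -0.35 for all features and -0.94 for 3'UTR features. Abl1, a tyrosine kinase, had 16.9, 13.1 and 15.9 CPM in mESC 1FA and 139 and 139 in ActD4, a rise of 3.00 ± 0.19 (log2, SE, limma adjusted p = 0.000129). Fam193b rose by 2.50 ± 0.22 (83.6 and 95.3 in ActD4) and Csnk1a1, a kinase that marks beta-catenin for breakdown, by 2.43 ± 0.25 (62.1 and 63.5). Zfp532 (39.0, 49.6 and 42.7 in mESC 1FA, 31.0 and 11.9 in ActD4) and Luc7l2 (35.2, 23.8 and 44.1, then 14.3 and 19.9) fell. Their log2 differences were -1.33 ± 0.42 and -1.13 ± 0.33 (limma adjusted p = 0.0486 and 0.0357). Both passed the filter through mESC 1FA alone. All 5 genes were chosen among calls whose groups did not overlap.

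The ActD4 result is relative and rests on 2 libraries. Scaled on the 5'UTR features alone, 53 rose and 62 fell, and leaving out single libraries changed the count. It fell to 148 when replicate 2 of mESC 1FA was left out and to 127 for its replicate 3, and it was 588 when replicate 1 of ActD4 was left out and 576 for its replicate 2. With replicate numbers as a block 90 were called, and 607 of the 740 features passed the filter through mESC 1FA alone. Within single genes the 5'UTR difference was above the intron difference in 643 of 724 genes (median 1.38 on the log2 scale), above the 3'UTR difference in 425 of 470 (median 1.77) and above the coding difference in 399 of 621 (median 0.37).

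With 2% formaldehyde none of 625 5'UTR features was called by limma, 87 had an unadjusted p under 0.05, and 0.00602% of all 16610 features were called. Samples with the same replicate number deviated together in these 2 groups, and with the number as a block 28 5'UTR features were called, all lower in mESC 2FA. The median log2 difference was -0.36, against -0.01 for all features.

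In the NPM libraries most tested 5'UTR features were lower than in 1FA. In mESC 9 of 720 were called higher and 465 lower, where 41.8% of all 17417 features were called, 17% higher and 24.9% lower. In mOPC 15 of 352 were called higher and 231 lower, where 49.9% of all 16234 features were called, 25.7% higher and 24.2% lower. The filter was passed through the 1FA group alone by 701 of the mESC and 273 of the mOPC features, so these counts do not speak for all 5'UTRs. Fits of 5'UTR features alone gave 39 higher and 178 lower in mESC and 58 higher and 74 lower in mOPC, and scaling by the total gave 32 higher and 164 lower in mOPC. In mESC 266 features were called when replicate 1 of mESC 1FA was left out, and 265 for its replicate 3. Vav2 (36.7, 20.1 and 20.5 CPM in mESC 1FA), Dyrk1a, a kinase encoded in the Down syndrome region (34.1, 13.9 and 19.8), and Mark3, a microtubule affinity-regulating kinase (20.6, 17.6 and 15.2), fell and were listed at 0 in both mESC NPM libraries. They passed the filter through mESC 1FA alone.

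A few 5'UTRs went the other way. Zfp57 rose in mESC NPM by 2.27 ± 0.22 (log2, SE, limma adjusted p = 0.00026) from 16.5, 22.9 and 19.8 CPM, and 2410002F23Rik rose by 1.40 ± 0.26 from 16.5, 19.3 and 14.5. Arhgap11a, with under 2.46 CPM in each mESC 1FA library, differed by 4.47 ± 0.38. In mOPC NPM Olfr1349 differed by 2.97 ± 0.41 from 2.71, 1.90 and 3.50 CPM in mOPC 1FA. Both of these passed the filter through the NPM group alone. Among the falls in mOPC NPM, Abtb2 went from 13.6, 23.3 and 21.5 CPM to a listed 0 in both libraries. Epc2, a subunit of a histone acetyltransferase complex, fell by 4.85 on the log2 scale to a mean of 0.840 CPM. Arih1, a ubiquitin ligase, fell by 4.83 to a mean of 2.07 CPM. Abtb2, Epc2 and Arih1 passed the filter through mOPC 1FA alone, so their falls are a description.

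Gene groups known for control through the 5'UTR were described by their counts. Of 102 genes of terminal oligopyrimidine mRNAs, which encode ribosomal proteins and translation factors, 62 had 5'UTR tags, 2113 in all and 3.16% of their own interactions. Rpl32 had 239, of which 201 lay inside the snoRNA gene Snora7a, Rps15a 161, Rpsa 154 and Rps19 142. Their summed level was 94.8 to 127 CPM in the mESC 1FA libraries, 83.9 to 103 in mESC 2FA, 242 to 260 in ActD4, 129 to 130 in mESC NPM, 19.5 to 37 in mOPC 1FA and 33.8 to 42.8 in mOPC NPM, so the cell types did not overlap. Of the 7 tested between mOPC 1FA and mESC 1FA, 6 were called lower and none higher, with a median log2 difference of -2.42, where 37.1% of all features were called lower with a median of -0.16. All 6 passed the filter through mESC 1FA alone. After actinomycin D 2 of 10 rose and 1 fell, with a median of 0.21, where 12.7% of all features were called higher and 28.8% lower. In mESC NPM 1 of 11 rose and 4 fell, with a median of -1.47, where 17% of all features were called higher and 24.9% lower.

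Of 13 genes with known upstream reading frames, 11 had 430 tags, led by the amino acid transporter Slc7a1 (95), Ppp1r15b (69) and Ppp1r15a (47), subunits that restore translation after stress, and Azin1 (61), which controls polyamine synthesis. Their summed level was 16.1 to 18.8 CPM in mESC 1FA and 75.5 to 81.2 in ActD4. The 1 member tested in that contrast, Slc7a1, was not called (log2 difference -1.86, limma adjusted p = 0.225), where 41.5% of all features were called. Of 11 genes with described internal ribosome entry sites, 10 had 433 tags, with Vegfa (127), Apaf1 (89), Myc (76) and Bcl2 (51) first. Their level was 8.60 to 14.6 CPM in mESC 1FA, 31.8 to 40.6 in ActD4, 19.5 to 20.5 in mOPC 1FA and 45.6 to 49.6 in mOPC NPM. Of the 3 members tested in mOPC NPM against mOPC 1FA, Vegfa, Myc and Bcl2, none was called, with limma adjusted p of 0.0944, 0.172 and 0.141. In that contrast 49.9% of all features were called. In ActD4 the 1 tested member, Apaf1, was called higher, where 41.5% of all features were called. The 6 genes with iron-responsive elements had 29 tags, 23 of them in Epas1, and none passed the filter. In the upstream reading frame group 1 feature was tested between the cell types and rose in mOPC (Slc7a1), where 32.6% of all features were called higher. In the NPM libraries Slc7a1, which passed the filter through 1FA alone, was called lower, at log2 differences of -3.96 in mESC, where it was listed at 0, and -1.79 in mOPC. Of all features, 24.9% were called lower in the mESC NPM contrast and 24.2% in that of mOPC NPM. Between the cell types, 2 of 3 in the entry site group rose (Vegfa and Bcl2) and 1 fell (Apaf1), where 69.7% of all features were called. In mESC 1FA, Bcl2 was listed at 0 and Vegfa had a mean of 1.91 CPM, with overlapping groups. Apaf1 had a mean of 0.452 CPM in mOPC 1FA. None of them passed the filter through both groups, so these calls are a description.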

How the data were processed

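RADICL-seq libraries (15 libraries in 32 entries, an RNA and a DNA entry each and a second run of 1 mESC NPM library) were used as deposited. The submitters' processing notes name CASAVA 1.8 and BWA 0.7.15-r1140 with mm10. The authors removed duplicates, kept uniquely mapped tags, assigned RNA tags to GENCODE M14 and tested each transcript and 25-kb bin on pooled replicates with a binomial test. The deposited p-value columns hold that test, and all listed adjusted p-values were under 0.05. No per-sample column was left unused (0).

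Lines were reduced to distinct interactions and counted per library. Positions were taken from GENCODE M21 on the same build. Shares were compared with exact permutation tests over libraries (28 comparisons) and exact sign-flip permutation tests within libraries (9 comparisons), each adjusted by the Benjamini-Hochberg method. Features with at least 10 interactions in the smaller group's number of libraries and 15 in total were tested with limma 3.58.1 (R 4.3.3, trend) on log2 CPM (interactions per 1000000) with a prior of 0.5 and trimmed-mean scaling, and the procedure was tested on simulated data. Python 3.11.15 was used elsewhere. The genes named were the 5 highest per group, the 3 largest called rises and falls per contrast averaging 20 or more interactions a library in groups that did not overlap, the 5 highest own 5'UTR shares among genes with at least 300 interactions, and list members with the most tags. Arhgap11a and other genes with added fold changes were named under another part of this rule, and Tbx3, Ddx39b, Scaf8, Chst11 and the snoRNA genes were chosen after their values were seen. The members and lists were chosen with earlier results of these data known.

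Replicate numbers were taken as pairs between mESC 2FA and mESC 1FA alone, where same-numbered libraries deviated together (r = 0.436, 0.260 and 0.301). The labels do not say that other numbers mark shared batches. P-values measure the spread between libraries that share 1 list of pairs.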

Additional observations from a re-analysis of the deposited data

How the results depend on the processing

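The alternatives left 446 values in the same direction and on the same side of an unadjusted p of 0.05 or, for counts, within 1.5 times. Of the planned ones 15 moved, 13 reversed, 6 became stronger and 15 weaker, and of those added after the data were seen 11 reversed, 1 became stronger and 1 weaker. Unless the alternative itself shows it, the cause was not tested. Without own-gene targets the NPM minus 1FA difference in the 5'UTR share reversed to 1.30 points in mESC, 0.976 in mOPC and 1.14 over both cell types, the downstream difference of ActD4 to -6.30 and that of mOPC minus mESC over both conditions to -11.0. The downstream differences of 5'UTR tags against other regions then reversed to -6.75 (coding), -22.9 (3'UTR) and -11.6 (intron). Counting each transcript-bin pair once gave 2.23 (mOPC NPM) and 0.664 (both cell types) for the NPM share difference, and for mOPC minus mESC over both conditions -0.416 for the share, -3.40 for trans and 3.98 within 1 kb. The mOPC minus mESC share difference over both conditions was weaker over protein-coding genes (-0.148) and over exonic tags (-0.0428), where 1FA means were lower in mOPC and NPM means higher. Without the ribosomal RNA gene bin the trans difference reversed to 0.0626 (mOPC 1FA), 0.00573 (mESC 2FA) and 0.101 (mOPC minus mESC over both conditions), and without small RNA genes the last was -2.33. At equal pooled numbers the within 1 kb difference of mOPC 1FA reversed to -0.102 and the ActD4 downstream difference to -6.06, and beyond 25 kb the downstream difference of mOPC minus mESC over both conditions was -2.68. In the same genes the trans difference was 0.405 against coding, 0.296 against 3'UTR and 0.499 against intron tags, and the within 1 kb difference against introns -1.85. Leaving out a group gave 0.450 for trans against introns (without mOPC NPM). Without mESC 1FA, mESC 2FA, ActD4 or mOPC 1FA the within 1 kb difference against introns was -0.214, -0.666, -0.400 and -0.286, and the downstream difference against introns 4.15, 3.67, 4.28 and 3.45, where fewer libraries were tested.

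Without a filter the 5'UTR features called were 1738 (cell types), 1218 (ActD4), 1332 (mESC NPM) and 1112 (mOPC NPM), from more features tested. Scaled alone they were 115 (ActD4), 217 (mESC NPM) and 132 (mOPC NPM). With the replicate number as a block they were 28 (mESC 2FA) and 90 (ActD4), the other counts of calls stayed within 1.5 times, and the ActD4 share difference was 1.98 points. Leaving out single libraries gave the NPM share difference over both cell types as -0.278 to -0.190 points, and for mOPC minus mESC over both conditions -0.241 to -0.153 (share), -3.09 to -1.78 (trans), 2.75 to 3.69 (within 1 kb) and -0.506 to 0.589 (downstream). The called features then numbered 127 to 588 (ActD4), 265 to 678 (mESC NPM) and 166 to 228 (mOPC NPM). A lone remaining library was assumed to vary like the other group. The number of libraries, the pooled calling of pairs and the small NPM counts beyond 1 kb limit the precision.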
